A study of Mus musculus with 35 samples.

Results

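The cell cycle set comprised 45 genes chosen by symbol from a given list, 19 of S phase and of entry into it and 26 of mitosis. Of these, 44 were measured, among 19908 genes with a probe set of their own. Ccnb1, the other B-type mitotic cyclin beside Ccnb2, was not analysed here, so the mitotic class had 25 measured members.

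Total RNA from colon tissue of 35 C57BL/6N mice was hybridised to Affymetrix Mouse Gene 1.0 ST arrays, with 1 array for every mouse and 7 groups of 5. The mice with their own flora were wild-type (WT) or carried a transgene for Reg3a (TG), a secreted antimicrobial lectin of the gut, and of each genotype 1 group was left untreated and 1 received 3% dextran sodium sulfate (DSS), which injures the colon epithelium, for 5 days. The other 3 groups were axenic mice, raised free of microbes, and all received the same DSS. Recipients of flora from WT or from TG donors were transplanted 3 weeks before DSS, while the label of the axenic controls places DSS before the transfer, so whether and when these controls held flora is not known here. Colons were collected at day 12. The labels name neither the promoter of the transgene nor the sex, cage or batch of a mouse, nor the genotype of the axenic recipients. For the conventional mice, 1 label also speaks of a microbial transfer, and the titles and design text were followed instead. The series title speaks of epithelial cells, but the mean over 10 smooth muscle markers ranged from 9.38 to 10.9 log2 units over the mice and the mean over 14 epithelial markers from 10.6 to 11.9, so the tissue held both. In such bulk RNA, fewer dividing cells and less RNA of these genes per cell cannot be told apart.

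A dividing cell first loads the MCM helicase onto its replication origins, and cyclin E with Cdk2 and the E2F transcription factors then switch on the genes that copy DNA and supply its building blocks. Cyclins A and B with Cdk1 drive the later entry into mitosis, when kinetochores, spindle checkpoint and motor proteins divide the chromosomes. Genes of the first wave are known for E2F sites in their promoters, and those of the second for CCAAT boxes and the CHR element (cell cycle homology region), through which the MuvB complex with B-Myb and FoxM1 acts. In the colon, cells divide mainly in the lower crypt, and crypts regrow after injury.

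S-phase and mitotic genes moved by different amounts and are known for different elements, and a link between the elements and the amounts was not tested. The promoters of 6 members are shown here. They are the 250 bases before the RefSeq start (build GRCm38.p6), written in the direction of the gene, with E2F motifs, CCAAT boxes and CHR motifs in capitals. Rrm2, Ccnb2, Plk1 and Cdk1 are among the members with the smallest p for DSS in WT mice, while Mcm6 and Top2a were added after their motifs were seen. Rrm2 lies at chr12:24708004-24708253 on the plus strand, Mcm6 at chr1:128359706-128359955 on the minus strand, Ccnb2 at chr9:70421555-70421804 on the minus strand, Plk1 at chr7:122159185-122159434 on the plus strand, Cdk1 at chr10:69352913-69353162 on the minus strand and Top2a at chr11:99024190-99024439 on the minus strand.
Rrm2: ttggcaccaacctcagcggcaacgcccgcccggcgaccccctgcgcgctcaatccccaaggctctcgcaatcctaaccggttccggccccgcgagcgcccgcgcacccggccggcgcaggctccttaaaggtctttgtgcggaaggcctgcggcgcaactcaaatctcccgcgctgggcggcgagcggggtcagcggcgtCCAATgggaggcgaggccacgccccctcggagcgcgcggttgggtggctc
Mcm6: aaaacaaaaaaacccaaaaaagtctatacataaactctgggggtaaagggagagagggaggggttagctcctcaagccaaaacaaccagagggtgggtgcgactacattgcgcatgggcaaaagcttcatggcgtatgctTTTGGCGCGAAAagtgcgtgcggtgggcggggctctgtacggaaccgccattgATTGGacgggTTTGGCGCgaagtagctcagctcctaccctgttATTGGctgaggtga
Ccnb2: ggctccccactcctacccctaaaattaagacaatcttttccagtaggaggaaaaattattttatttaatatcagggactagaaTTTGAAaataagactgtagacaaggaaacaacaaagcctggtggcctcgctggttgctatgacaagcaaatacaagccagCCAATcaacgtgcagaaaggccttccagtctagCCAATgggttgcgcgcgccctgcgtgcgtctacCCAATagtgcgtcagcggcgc
Plk1: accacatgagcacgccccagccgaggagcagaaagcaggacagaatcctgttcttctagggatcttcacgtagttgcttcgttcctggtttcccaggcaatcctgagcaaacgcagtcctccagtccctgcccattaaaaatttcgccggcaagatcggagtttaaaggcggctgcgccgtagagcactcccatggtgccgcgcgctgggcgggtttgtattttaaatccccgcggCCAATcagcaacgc
Cdk1: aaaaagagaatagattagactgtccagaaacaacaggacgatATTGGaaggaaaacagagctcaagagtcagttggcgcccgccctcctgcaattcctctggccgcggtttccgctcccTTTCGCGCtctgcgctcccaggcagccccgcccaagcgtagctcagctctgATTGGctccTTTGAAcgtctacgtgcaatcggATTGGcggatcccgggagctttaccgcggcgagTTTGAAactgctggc
Top2a: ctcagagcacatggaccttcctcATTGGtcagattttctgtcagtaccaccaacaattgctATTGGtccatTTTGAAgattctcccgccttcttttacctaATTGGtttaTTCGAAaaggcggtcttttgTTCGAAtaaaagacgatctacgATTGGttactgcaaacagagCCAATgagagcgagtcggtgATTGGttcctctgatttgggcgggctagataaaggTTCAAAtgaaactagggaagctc

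The S-phase gene Mcm6 held 3 E2F motifs, the first pair of which overlap in the longest run of capitals, and 2 CCAAT boxes. Ccnb2 held 3 CCAAT boxes and 1 CHR motif, Cdk1 held 3 CCAAT boxes, 2 CHR motifs and 1 E2F motif, and Top2a held 6 CCAAT boxes and 4 CHR motifs. Rrm2 and Plk1 held 1 CCAAT box each, and the promoters of Tk1 and Tyms, which are not shown, held none of the 3 motifs before the start. In Ccnb2 a further CHR motif began 5 bases after the start and in Plk1 the only one began 31 bases after it, outside the printed stretch.

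Promoters of 35 members were in the RefSeq table, 16 of S-phase and 19 of mitotic members. Searched on both strands, an E2F motif (TTTCCCGC, TTTGGCGC, TTTCGCGC or TTTGCCGC) stood in the 250 bases before the start of 5 of 16 S-phase members (31.2%) and of 1 of 19 mitotic members (5.26%), against 2.72% of 17492 protein-coding genes. A CCAAT box (CCAAT) stood in 62.5% of the S-phase members, 78.9% of the mitotic members and 39.5% of protein-coding genes. A CHR motif (TTTGAA or TTCGAA) stood in 18.8% of the S-phase members, 42.1% of the mitotic members and 18.4% of protein-coding genes. When the 50 bases after the start were searched as well, the CHR share was 78.9% in the mitotic members, 18.8% in the S-phase members and 20.2% in protein-coding genes. E2F motifs were thus more frequent in the S-phase promoters and CHR motifs in the mitotic ones, in sequence that the choice of members did not use. A match is a description of the letters and not of a bound site. The other cell-cycle genes listed below held similar shares over the same 300 bases, with a CHR motif in 71.6% of 67 mitotic and 19.2% of 52 S-phase genes.

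In WT mice, DSS was followed by higher mitotic transcripts, while S-phase members rose by less at the median and most did not pass the test. In limma's test, adjusted by Benjamini-Hochberg over all genes and called at adjusted p under 0.05, 18 of the 44 members rose and 0 fell, whereas 3.00% of all genes were called higher. The 18 were 16 of 25 mitotic members and 2 of 19 S-phase members, Rrm2 and Tk1. At an unadjusted p under 0.05, 24 mitotic and 12 S-phase members were higher and 0 lower, against 9.52% of all genes higher. All 44 members had a positive log2 difference, with a median of 0.49 over the S-phase class (range 0.14 to 1.60) and 1.20 over the mitotic class (0.28 to 2.34), against -0.02 over all genes. In 20 members all 5 DSS mice lay above all 5 untreated mice, 19 of them mitotic, against 3.20% of all genes. No test was made of the difference between the classes.

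**Figure D1:**
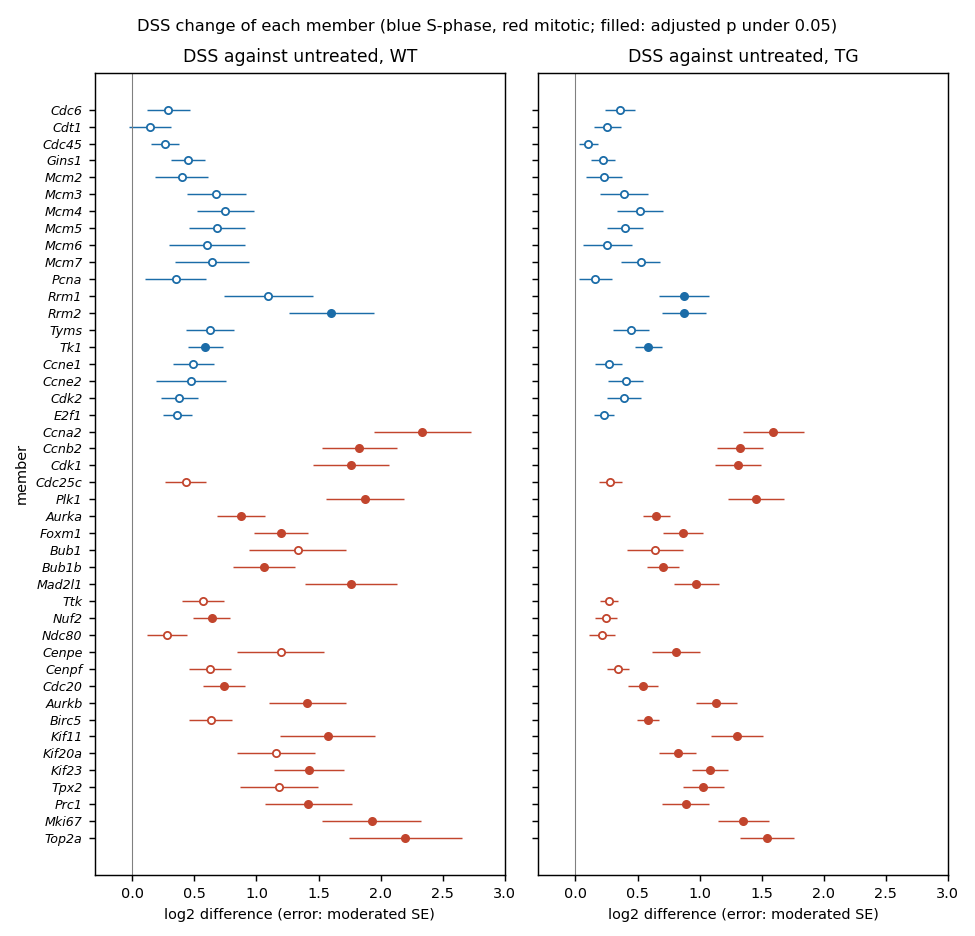
Log2 difference of DSS against untreated mice for each of the 44 members, in WT mice on the left and TG mice on the right, with the moderated standard error as the bar. Filled points passed the test (18 in WT, 22 in TG), and the red mitotic members lie further to the right than most of the blue S-phase members in both panels.

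Among the genes of mitotic entry, 6 of 7 rose in WT mice, with a median difference of 1.76. Ccnb2, the cyclin that activates Cdk1, read 7.59, 7.72, 7.88, 8.12 and 8.32 log2 units in untreated WT mice and 8.74, 9.53, 9.68, 10.16 and 10.64 after DSS. Its groups did not overlap, and the difference was 1.83 (SE 0.30, 3.55-fold, adjusted p = 0.00788). Cdk1 itself, the kinase that starts mitosis, read 7.12, 7.13, 7.30, 7.60 and 7.68 without DSS and 8.16, 8.81, 9.04, 9.46 and 10.16 with it. Every DSS mouse lay above every untreated mouse, by 1.76 on average (SE 0.31, adjusted p = 0.0099). Ccna2, the cyclin of late S phase and early mitosis, had the largest difference of any member, 2.34 (SE 0.39, 5.05-fold, adjusted p = 0.00832), and was singled out for it. Cdc25c, the phosphatase that releases Cdk1 from inhibition, was the 1 gene of this role that did not pass, at 5.06 to 5.69 without and 5.52 to 6.35 with DSS (difference 0.43, SE 0.16, adjusted p = 0.196).

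Of the kinetochore and checkpoint genes, 5 of 11 rose, with a median difference of 0.74. Mad2l1, a checkpoint protein that holds back anaphase, read 6.54, 6.81, 7.02, 7.12 and 7.33 in untreated WT mice and 7.53, 8.10, 8.80, 9.57 and 9.62 after DSS. These groups did not overlap either (difference 1.76, SE 0.37, adjusted p = 0.0219). Ndc80, which ties kinetochores to microtubules, read 5.52 to 6.00 without DSS and 5.67 to 6.47 with it, and differed by only 0.28 (SE 0.16, 95% interval -0.08 to 0.64, adjusted p = 0.497). Of the motors and cytokinesis genes, 3 of 5 rose (median 1.42). Kif23, a motor of the central spindle, read 6.40 to 6.77 without and 6.99, 7.55, 8.15, 8.54 and 8.69 with DSS, a difference of 1.42 (SE 0.28, adjusted p = 0.0173) without overlap. Kif20a, a motor of the same stage, differed by 1.16 (SE 0.31), with overlapping groups, and did not pass (adjusted p = 0.0608).

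Both chromosome-bound proliferation marks rose. Mki67, which encodes the Ki-67 antigen of cycling cells, read 7.01, 7.09, 7.73, 7.74 and 7.82 in untreated WT mice and 8.05, 8.85, 9.66, 9.999 and 10.46 after DSS. Top2a, the topoisomerase that untangles chromosomes before they part, read 5.93, 6.39, 6.61, 6.66 and 6.68 without DSS and 6.97, 8.07, 8.93, 9.48 and 9.81 with it. Neither gene's groups overlapped, and the differences were 1.93 (SE 0.40, adjusted p = 0.0205) for Mki67 and 2.20 (SE 0.46, adjusted p = 0.0207) for Top2a. A second Top2a probe set read 4.09 on average over all arrays and differed by only -0.03, so these values rest on the brighter one.

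Of the S-phase members, the nucleotide supply genes moved furthest, with 2 of 4 called. Their median difference of 0.86 lay above the 0.74 of the mitotic kinetochore and checkpoint genes, so the roles of the 2 classes overlapped. Rrm2, the regulated subunit of ribonucleotide reductase, read 6.24, 6.25, 6.32, 6.41 and 6.96 in untreated WT mice and 6.91, 7.75, 8.16, 8.18 and 9.21 after DSS. The highest untreated mouse lay just above the lowest DSS mouse, and the difference was 1.60 (SE 0.34, adjusted p = 0.0235). Rrm1, the large subunit, read 7.09 to 7.90 without DSS and 7.47, 8.18, 8.81, 9.08 and 9.78 with it. It differed by 1.096 (SE 0.36), overlapped and did not pass (adjusted p = 0.122). Tk1, the thymidine salvage kinase, rose by 0.59 (SE 0.14, adjusted p = 0.0389), and a second probe set of it differed by 0.72.

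None of the 11 origin and fork genes passed (median 0.45), although 5 had an unadjusted p under 0.05 and were higher, against 9.52% of all genes. Mcm4, a subunit of the MCM helicase, read 6.44, 6.54, 6.77, 6.79 and 6.91 without and 6.75, 7.05, 7.54, 7.79 and 8.06 with DSS (difference 0.75, SE 0.23, adjusted p = 0.0941). Only the lowest DSS mouse fell within the untreated range. Pcna, the sliding clamp of DNA polymerase, differed by 0.35 (SE 0.24, 95% interval -0.18 to 0.88, adjusted p = 0.61), and Cdt1, which loads the helicase, by 0.14 (SE 0.17, adjusted p = 0.865). None of the 4 genes of the G1/S switch passed. E2f1 differed by 0.36 (SE 0.12, adjusted p = 0.118) and Ccne2, a cyclin partner of Cdk2, by 0.47 (SE 0.28, adjusted p = 0.506).

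The median of the mitotic class stayed above that of the S-phase class under each of 19 alternatives, by 0.61 to 0.99. The highest of these came from a filter at the 40th percentile of mean signal, which E2f1, Foxm1, Bub1b, Kif11 and Kif20a passed only through their DSS values. The dimmer members that this filter left out lay closer together, with medians of 0.64 over 10 mitotic and 0.46 over 4 S-phase members. The count of called members, unlike the sign of the class difference, moved with single mice, as did the share of all genes called higher. That share was 3.00% in the main fit and is given in brackets below. Leaving out untreated mouse 8 or 7 gave 5 called members (1.08% and 1.05%), mouse 10 gave 8 (1.26%) and mouse 11 gave 9 (1.74%). Leaving out DSS mouse 65 gave 6 (1.36%) and DSS mouse 53 gave 9 (1.85%), whereas leaving out DSS mouse 56 gave 30 (4.31%).

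Other cell types moved with DSS in the same mice, and their part in the result was not tested. Of 10 pan-leukocyte markers 7 rose, with mean levels of 7.01 to 7.41 in untreated WT mice and 7.45 to 9.07 after DSS, and 6 of 9 myeloid and 4 of 9 fibroblast markers rose. Among 8 B-cell and germinal centre markers 0 were called, with mean levels of 5.85 to 6.41 and 6.31 to 7.54. At an unadjusted p under 0.05, 5 of them were higher and 1, Rgs13, was lower. Of 14 epithelial markers 1 rose, while 6 of 9 crypt stem cell markers and 5 of 8 posterior Hox genes, which mark position along the gut, fell. Crypt stem cell markers averaged 7.38 to 7.60 without and 6.91 to 7.03 with DSS. With the smooth muscle level as a covariate, 5 members were called instead of 18, all 5 mitotic. In that fit 0.98% of all genes were called higher instead of 3.00%. The class medians there were 0.37 for S-phase and 1.04 for mitotic members.

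In TG mice the same comparison gave 22 called members, all higher, against 3.46% of all genes called higher. They were 19 of 25 mitotic and 3 of 19 S-phase members (Rrm1, Rrm2 and Tk1). In 25 members the groups did not overlap, against 5.40% of all genes. The median difference was 0.39 over the S-phase class (range 0.10 to 0.87) and 0.86 over the mitotic class (0.22 to 1.59), and all 44 differences were positive. Kif23 had the smallest adjusted p among the members, 0.00701: it read 6.61, 6.77, 6.87, 6.89 and 6.96 in untreated TG mice and 7.41, 7.81, 7.99, 7.99 and 8.32 after DSS (difference 1.08, SE 0.15). Ccnb2 read 7.90, 7.93, 8.59, 8.65 and 8.90 without and 9.56, 9.62, 9.73, 9.75 and 9.94 with DSS (difference 1.33, SE 0.19, adjusted p = 0.00746). Cdk1 read 7.10, 7.47, 7.51, 7.87 and 8.05 without and 8.58, 8.77, 8.88, 8.96 and 9.37 with DSS (difference 1.31, SE 0.19, adjusted p = 0.00748). None of these 3 genes had overlapping groups. Pcna read 9.69 to 10.28 without and 9.91 to 10.34 with DSS, and differed by 0.16 (SE 0.13, 95% interval -0.13 to 0.45, adjusted p = 0.444). The sign of the Pcna difference turned with quantile normalization and with the within-array SD as a covariate.

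The WT and TG comparisons share no mice. They had 17 called members in common, which is 94.4% of the calls in WT and 77.3% of those in TG mice. Across the 44 members the DSS differences of the 2 genotypes correlated with r = 0.957 (Spearman's rho 0.936), and across all 19908 genes with r = 0.656 (rho 0.535). These correlations describe genes, which are not independent replicates. Both classes kept their order in TG mice, with a mitotic median 0.36 to 0.72 above the S-phase median over 19 alternatives. The highest again came from the filter on mean signal. The dimmer members that this filter left out had medians of 0.34 over 9 mitotic and 0.38 over 4 S-phase members. The filter used the DSS mice as well, so members that rose could leave this dim set and its order decides nothing. Of pan-leukocyte markers 7 of 10 rose in TG mice too (mean levels 7.09 to 7.59 without and 8.11 to 9.47 with DSS), with 1 of 9 myeloid and 4 of 9 fibroblast markers. Of the 9 crypt stem cell markers 1 rose and 1 fell. Of 8 B-cell and germinal centre markers 0 rose, with 5 higher at an unadjusted p under 0.05, and 1, Rgs13, fell. The part of these cells in the result was not tested.

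The values of each mouse showed how the members moved together. For each mouse the mean over the members of a class was taken as the difference from the untreated WT mean. After DSS the WT mice had mitotic means of 0.39, 0.90, 1.28, 1.65 and 2.07 and S-phase means of 0.04, 0.34, 0.60, 0.68 and 1.20, with the mice in the same order in both, from mouse 56 at the bottom to mouse 52 at the top. The TG mice had mitotic means of 0.823, 1.055, 1.104, 1.299 and 1.539 and S-phase means of 0.250, 0.345, 0.445, 0.502 and 0.800 after DSS, again in the same order. The spread among mice was thus wider in WT (SD 0.65 for the mitotic mean) than in TG mice (SD 0.27), a difference that was not tested. With the mice in the same order, the SD over all log2 values of an array was 1.808, 1.714, 1.884, 1.980 and 1.987 in WT mice. In TG mice it was 1.831, 1.848, 1.902, 1.892 and 2.022. Arrays of wider spread thus tended to have higher class means, and the part of array spread in this order was not tested. In mouse 56, 20 of 44 members lay above all 5 untreated WT mice, while in mouse 52 all 44 did.

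**Figure D2:**
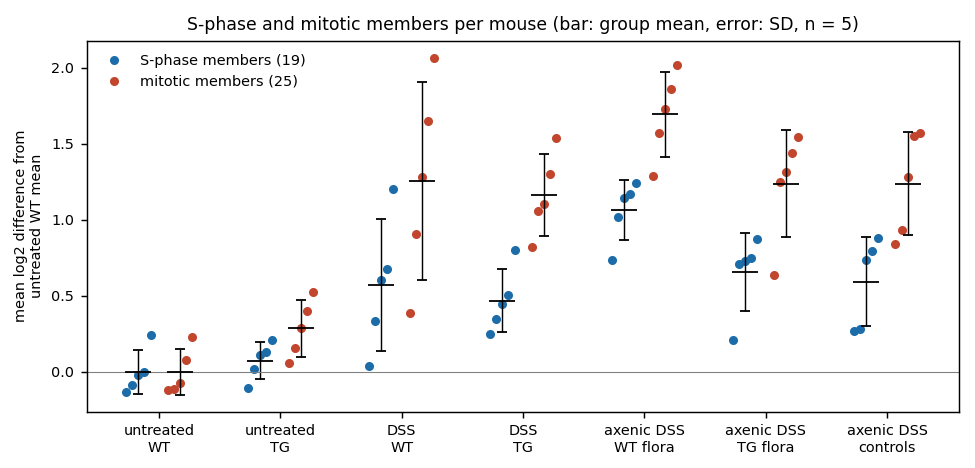
Mean over the S-phase members (blue) and over the mitotic members (red) for each mouse, as log2 difference from the untreated WT mean, with the group mean and SD of 5 mice in black. In each of the 5 DSS groups the mitotic means lie above the S-phase means, and DSS mouse 56 is the lowest WT mouse, at 0.04 and 0.39.

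The mitotic mean minus the S-phase mean was -0.10 to 0.17 in untreated WT mice and -0.05 to 0.39 in untreated TG mice. It was 0.35 to 0.97 in WT and 0.57 to 0.80 in TG mice after DSS. In axenic mice after DSS it was 0.55 to 0.85 with WT flora, 0.43 to 0.69 with TG flora and 0.54 to 0.76 in the controls. The group means of this difference lay between 0.58 and 0.70 in all 5 DSS groups, against 0.00 and 0.21 in the untreated groups. Apart from TG mouse 28 (0.39), every untreated mouse lay below every DSS mouse. The axenic mice were not compared with untreated mice of their own kind, so their values stand beside those of the conventional mice as a description.

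**Figure D3:**
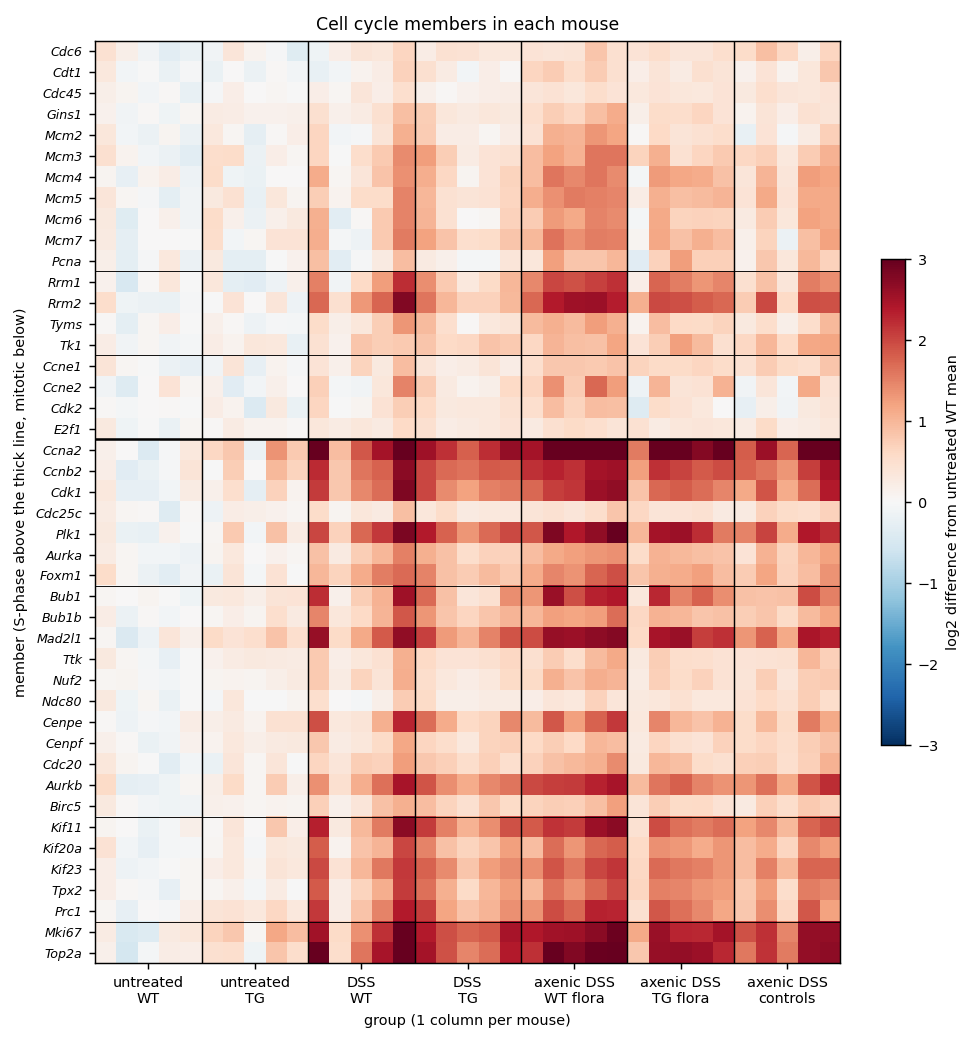
Log2 difference of each of the 44 members from its untreated WT mean, with 1 column per mouse and black lines between groups and roles. The red of the DSS groups is deepest in the mitotic rows below the thick line, such as Ccna2, Mki67 and Top2a, and within the S-phase rows in Rrm1 and Rrm2.

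Of the cell-cycle genes outside the set, 186 of 193 listed were measured. In WT mice 25 rose and 3 fell after DSS, against 3.00% of all genes called higher and 2.13% called lower. Of 79 other mitotic genes 21 rose and 1 fell (median 0.66), whereas 2 of 61 other S-phase genes rose (median 0.35) and 2 of 46 regulators rose and 2 fell (median 0.13). The shares of the S-phase genes and of the regulators called higher were thus near that of all genes. At an unadjusted p under 0.05, however, 32 of the 61 S-phase genes were higher and 1 lower, against 9.52% of all genes higher. Of the 46 regulators 7 were higher and 3 lower at that p. In TG mice 36 mitotic genes, 2 S-phase genes and 6 regulators rose, and 1 regulator fell, against 3.46% of all genes called higher and 1.08% called lower. These lists were drawn up with earlier results of these data known.

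Among these mitotic genes, Anln, which scaffolds the contractile ring, rose by 1.51 (SE 0.32, adjusted p = 0.0219), Cenpa, the centromere's own histone, by 1.39 (SE 0.26, adjusted p = 0.0126) and Knl1, a kinetochore scaffold, by 1.33 (SE 0.27, adjusted p = 0.0195) in WT mice. Ube2c, which tags cyclin B for destruction, rose by 1.31 (SE 0.25), Cks1b, a Cdk subunit, by 1.23 (SE 0.21), Ncaph, a condensin subunit, by 1.14 (SE 0.27) and Iqgap3 by 0.76 (SE 0.13). Wee1, the kinase that holds Cdk1 inactive, fell by 1.12 (SE 0.21, adjusted p = 0.0126), and in TG mice its difference was -0.14 (SE 0.14, adjusted p = 0.514). The gap between these Wee1 differences, 0.98 (SE 0.26), was not called (adjusted p = 0.193), and Wee1 already read 7.862 on average in untreated TG mice, against 8.711 in untreated WT mice. The S-phase genes that rose were Asf1b, a histone chaperone, by 1.13 (SE 0.29) and Fancd2, of crosslink repair, by 0.47 (SE 0.11). Dbf4, the activator of the origin kinase Cdc7, did not pass at 1.05 (SE 0.28, adjusted p = 0.0584). Of the regulators, E2f2 rose by 0.83 (SE 0.15) and Tfdp1, a partner of E2F proteins, by 0.58 (SE 0.14), while Ccnd2 and Cdk6, a cyclin and a kinase of G1, fell by 0.94 (SE 0.19) and 0.54 (SE 0.11). Ccnd1 did not pass at 1.03 (SE 0.30, adjusted p = 0.0787), nor did Myc at -0.24 (SE 0.19, adjusted p = 0.702) or the inhibitors Cdkn1c at 0.20 and Cdkn2c at 0.31. Mcm8 (0.35), Dut (0.50) and Rad51ap1 (0.35) of replication and repair and Cdc26 (0.32) and Anapc11 (0.14) of the anaphase-promoting complex did not pass either.

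Without DSS, the transgene was accompanied by small positive differences in the mitotic genes that did not pass the test. By limma 0 of 44 members were called, and 0.0753% of all genes were called in either direction. All 25 mitotic members were positive (median 0.24), against 13 of 19 S-phase members (median 0.05). At an unadjusted p under 0.05, 11 mitotic members and 1 S-phase member were higher in TG mice, against 1.72% of all genes. In 4 mitotic members, Bub1, Mad2l1, Nuf2 and Prc1, the groups did not overlap, against 0.387% of all genes. Prc1, which bundles the microtubules of the central spindle, read 4.99, 5.21, 5.24, 5.29 and 5.44 in WT and 5.55, 5.55, 5.61, 5.66 and 5.86 in TG mice, and its difference of 0.41 (SE 0.10, 95% interval 0.20 to 0.63) had an adjusted p of 0.405. Mki67 read 7.01 to 7.82 in WT and 7.53, 8.14, 8.28, 8.40 and 8.64 in TG mice (difference 0.72, SE 0.22, adjusted p = 0.725). No marker of another cell type was called in this comparison. The 8 posterior Hox genes had a median of -0.55 (7 negative, 3 at an unadjusted p under 0.05), the 8 B-cell and germinal centre markers 0.24 (7 positive, 0 at that p), the 9 myeloid markers 0.00 (3 lower at that p) and the 14 epithelial markers 0.02. Their part in the result was not tested.

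With DSS, no member passed the test between WT and TG mice. By limma 0 of 44 were called, against 0.00502% of all genes, and 0 had an unadjusted p under 0.05, against 5.17% of all genes. The medians were -0.09 for the S-phase and -0.08 for the mitotic class, but turned to 0.07 and 0.13 with the smooth muscle level as a covariate and to 0.07 and 0.08 without DSS mouse 52 of the WT group. Rrm2 had the smallest p: it read 6.91 to 9.21 in WT and 7.13, 7.14, 7.41, 7.43 and 8.05 in TG mice (difference -0.61, SE 0.35, 95% interval -1.39 to 0.17, adjusted p = 1). Top2a differed by -0.22 (95% interval -1.26 to 0.83) and Mki67 by 0.14 (95% interval -0.72 to 1.01).

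The DSS effect itself was not called different between the genotypes in any member by limma (0 of 44, against 0.156% of all genes). At an unadjusted p under 0.05 there was 1, against 7.42% of all genes. This was Nuf2, of the Ndc80 complex, whose DSS difference of 0.64 (SE 0.15) in WT mice compared with 0.24 (SE 0.09) in TG mice, a gap of -0.39 (SE 0.17, adjusted p = 0.578). In 41 of 44 members the difference was larger in WT mice, with a median gap of -0.27 (-0.18 for S-phase and -0.34 for mitotic members, -0.02 for all genes). The size of this gap moved with single mice. Without DSS mouse 52 of the WT group the class medians were -0.05 (S-phase) and -0.16 (mitotic). Without DSS mouse 56 of that group they were -0.29 and -0.59. For Ccna2 the gap was -0.74 (95% interval -1.77 to 0.29). The untreated TG mitotic values, higher by a median of 0.24 as given above, enter this gap.

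**Figure D4:**
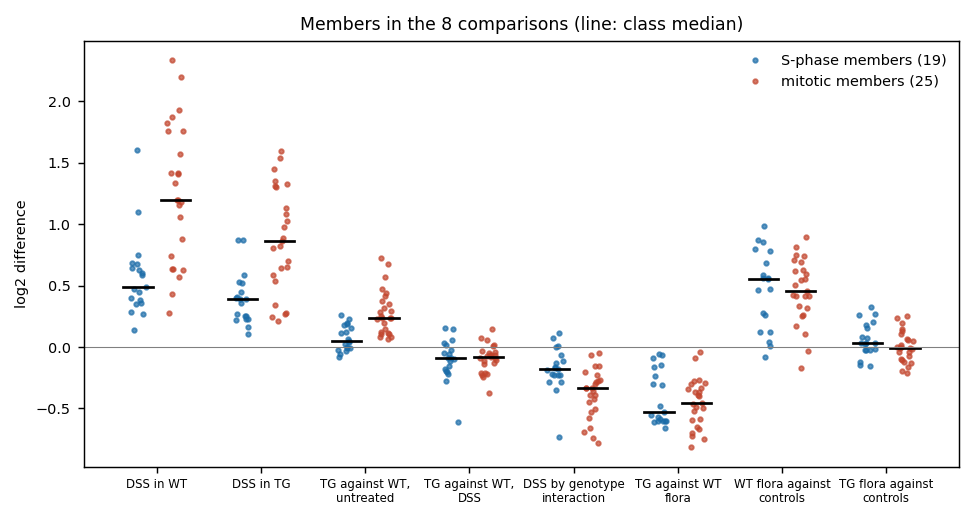
Log2 difference of each member in the 8 comparisons, S-phase members in blue and mitotic members in red, with the class median as a black line. The classes separate in both DSS comparisons (0.49 and 1.20 in WT, 0.39 and 0.86 in TG), and in the flora comparisons their medians lie close together.

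In axenic mice given DSS, all 44 members read lower with TG than with WT flora, but 0 were called by limma, which called 0% of all genes. At an unadjusted p under 0.05, 27 of 44 members were lower, against 20.8% of all genes. The medians were -0.53 for the S-phase and -0.46 for the mitotic class, against -0.00 for all genes. Aurkb, the kinase of the chromosomal passenger complex, had the smallest p: it read 9.09, 9.19, 9.19, 9.41 and 9.58 with WT flora and 8.05, 8.46, 8.59, 8.70 and 8.91 with TG flora. Its groups did not overlap, at a difference of -0.75 (SE 0.16, 95% interval -1.09 to -0.41, adjusted p = 0.0695). Tyms, the thymidylate synthase of the S-phase class, read 8.62, 8.62, 8.74, 8.74 and 8.92 with WT flora and 7.77, 8.24, 8.27, 8.33 and 8.60 with TG flora (difference -0.48, SE 0.14, adjusted p = 0.0698).

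Mouse AXDSSTG922 had the lowest class means of the mice with TG flora, and its array also had the lowest spread of signal among them. The standard deviation over all log2 values of an array was 1.665 in this mouse and 1.845 to 1.943 in the other 4 mice with TG flora, against 1.90 to 2.03 with WT flora. It had an S-phase mean of 0.21, against 0.71 to 0.87 in its group, and a mitotic mean of 0.64, against 1.25 to 1.54. Without it the class medians were -0.37 and -0.28 and 0 members were called. Without mouse AXDSSTG749, by contrast, 17 members were called, along with 4700 genes in all. With the within-array spread as a covariate the medians were -0.09 and -0.05, and with the smooth muscle level -0.12 and -0.06, with 0 members called in both. Smooth muscle markers averaged 10.2 to 10.9 with WT flora and 9.38 to 10.3 with TG flora, and 9 of 10 were lower at an unadjusted p under 0.05. All 14 epithelial markers were lower as well (median -0.29, 9 at that p, mean levels 11.51 to 11.89 and 11.05 to 11.62), with 8 of 9 crypt stem cell markers (median -0.25, 4 at that p). None of these markers was called, and their part in the result was not tested.

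Against the axenic controls, recipients of WT flora had 23 members called higher, but 32.1% of all genes were called higher and 6399 rose while 7002 fell. The members were 11 of 19 S-phase and 12 of 25 mitotic ones. Only 2 members, Cdk2 and Gins1, had groups that did not overlap, against 20.1% of all genes. The class medians were 0.55 for S-phase and 0.46 for mitotic members, so the mitotic class did not lead here. Cdk2, the kinase of S-phase entry, read 7.22, 7.37, 7.63, 7.75 and 7.84 in controls and 7.96, 8.13, 8.37, 8.39 and 8.40 with WT flora (difference 0.69, SE 0.14, adjusted p = 0.00177). Rrm1 read 7.94, 8.05, 8.46, 8.96 and 9.09 in controls and 9.01, 9.48, 9.57, 9.62 and 9.75 with WT flora (difference 0.99, SE 0.23, adjusted p = 0.0038). Its groups overlapped by 1 value on each side. Tyms differed by 0.56 (SE 0.14, adjusted p = 0.00486). Of the mitotic members, Ccnb2 differed by 0.50 (SE 0.19, adjusted p = 0.034), whereas Mki67 at 0.46 (SE 0.21, adjusted p = 0.0728) did not pass.

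These calls moved with the arrays. The within-array spread was 1.64 to 1.78 in every control and 1.90 to 2.03 in every recipient of WT flora, so array spread and group cannot be told apart here. With that spread as a covariate 0 members were called by limma, and 1 gene in all, and the class medians turned to -0.03 for S-phase and -0.37 for mitotic members, with Rrm1 at -0.05. With quantile normalization 10 members were called higher and 1 lower, against 15.3% of all genes called higher. Without the 3 controls of lowest spread 1 was called higher, against 15.2% of all genes. Leaving out mouse AXDSSWT597 gave 15 called members (1 of them lower), AXDSSWT098 gave 14, AXDSSCT677 gave 14 and AXDSSCT465 gave 12. All genes called higher were 27.6%, 29%, 30% and 28.8% in these fits, in that order. All 10 pan-leukocyte markers rose as well (mean levels 7.25 to 8.65 in controls and 8.81 to 9.94 with WT flora), with 11 of 14 epithelial markers (10.6 to 11.2 and 11.5 to 11.9). Their part in the result was not tested.

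Between recipients of TG flora and the controls no member passed limma's test (0 of 44, against 0.337% of all genes). At an unadjusted p under 0.05 there was 1, against 18.1% of all genes. This was Ndc80, which read 6.16, 6.17, 6.24, 6.32 and 6.46 in controls and 6.00, 6.03, 6.04, 6.06 and 6.18 with TG flora (difference -0.21, SE 0.09, adjusted p = 0.255). The medians were 0.03 for the S-phase and -0.00 for the mitotic class, with signs that turned under several alternatives, and Mki67 differed by -0.00 (95% interval -0.66 to 0.65). The 3 axenic comparisons share groups, so their values are not independent of each other.

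**Figure D5:**
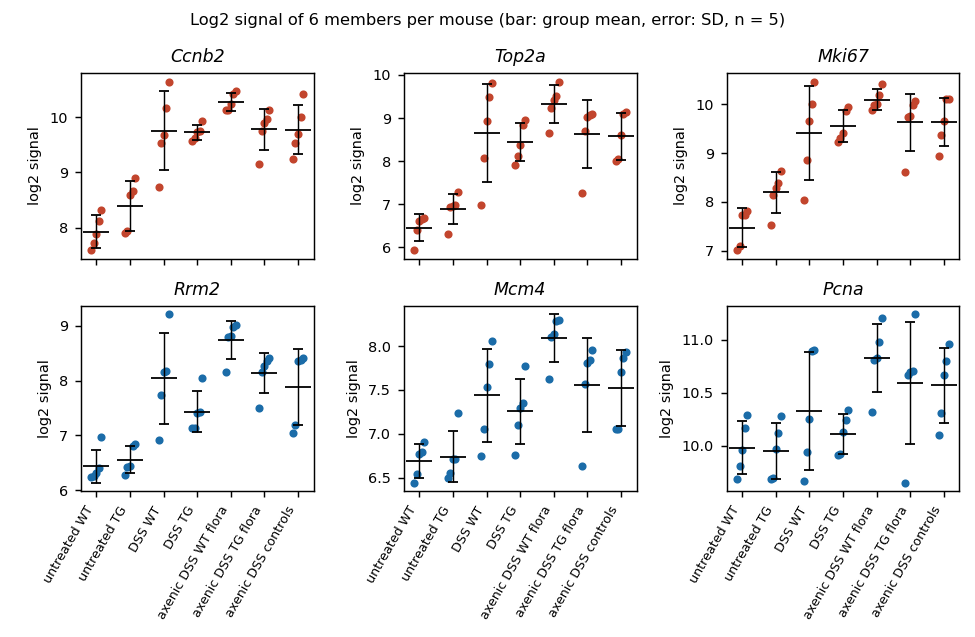
Log2 signal of 3 mitotic members (red) and 3 S-phase members (blue) in each mouse of the 7 groups, with the group mean and SD of 5 mice in black and an axis of its own for each gene. Ccnb2, Top2a and Mki67 lie higher in all DSS groups than in untreated WT mice, Pcna overlaps between the DSS and untreated conventional mice, and mouse AXDSSTG922 is the lowest of its group in Top2a (7.26) and Mki67 (8.62).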

How the data were processed

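The deposited values are log2 signal per probe set, which the authors normalized with RMA in Affymetrix Expression Console 1.1, per the submitters' processing notes. The genome build and annotation used in that step were not given in the sources used here. The labels give 200 ng of total RNA per target. Of 28090 probe sets, 23178 were annotated, 21639 to 1 gene and 1539 to several, which were left out. Symbols were updated through Entrez numbers against RefSeq (GRCm38.p6) for 21548 probe sets. The probe set of highest mean signal stood for each of 19908 genes. All 35 arrays entered, with 0 value columns unused.

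Each of 8 comparisons was fitted across all genes with limma 3.58.1 (R 4.3.3), two-sided, on the arrays of its own groups, with Benjamini-Hochberg adjustment and calls at adjusted p under 0.05. The fits were tested on simulated data with independent noise for each gene. Such data hold no spread shared across an array, so nothing is concluded from them about it. SE is limma's moderated standard error. Nothing says that the mice came from separate litters or cages, so p-values measure the spread between these mice. Array numbers limit the precision. Members and lists were chosen with earlier results of these data known, so class medians are a description.

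Named members were the smallest and largest p of each of 7 roles for DSS in WT mice, with Mki67, Top2a, Pcna and Cdk1. In other comparisons they were up to 3 called members, or the one of smallest p. Other cell-cycle genes were 2 per role, with Ccnd1 and Myc (Cdkn1a was not measured). Further genes were named after their values were seen. Alternatives were all 35 arrays in 1 model, array weights, quantile normalization, trended robust variance, the mean of a gene's probe sets, genes above the 40th percentile, covariates of within-array SD or smooth muscle level and leaving out each mouse. Leaving out the 7 arrays of lowest within-array SD (1.76 or less) and searching 300 promoter bases were chosen after seeing the data. Motifs were counted with Python 3.11.15 and pandas 2.3.3, and figures drawn with matplotlib 3.10.9.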

Additional observations from a re-analysis of the deposited data

Results flagged for a closer look

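In 19 measures and named members, 133 groups of 5 mice were examined for a single mouse far from the others. A mouse stood apart in 13 of them, where chance flags about 1 in 20 groups. The members vary together in the same mice, so these groups are not independent and the count was not tested.

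Mouse AXDSSTG922, with TG flora, was the lowest of its group in 7 of these. Its S-phase mean was 0.212, against 0.711 to 0.874 in the other mice. Its log2 signal was 6.631 for Mcm4, 7.494 for Rrm2, 7.774 for Rrm1, 7.571 for Mad2l1, 8.616 for Mki67 and 7.260 for Top2a, the last against 8.708 to 9.097.

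With WT flora, mouse AXDSSWT880 was lowest for Rrm2 (8.154, against 8.791 to 9.006) and Mad2l1 (8.911, against 9.537 to 9.706), and mouse AXDSSWT098 had the highest mitotic minus S-phase mean, 0.846 against 0.547 to 0.615. Untreated WT mouse 9 was highest for Rrm2, at 6.963 against 6.236 to 6.408. Among DSS-treated TG mice, mouse 48 was highest for Cdc25c (5.998, against 5.714 to 5.788) and mouse 49 for Ndc80 (6.300, against 5.881 to 5.972).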

How the results depend on the processing

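For DSS in WT mice 18 members were called. The count was 35 with all arrays in 1 model (11 of them S-phase members) and 40 with array weights (16 S-phase). With covariates it was 31 for the within-array SD (8 S-phase) and 5 for the smooth muscle level (0 S-phase). All genes called higher were 5.05%, 15.5%, 9.42% and 0.98% in these settings, in that order. Leaving out a mouse gave 5 to 30 called members, with 1.05% to 4.31% of all genes called higher, against 3.00% in the main fit. For DSS in TG mice, 22 became 34 with array weights, 13 with the within-array SD and 12 with the smooth muscle level. All genes called higher there were 9.4%, 1.21% and 0.633%, in that order, against 3.46% in the main fit. The mitotic median minus the S-phase median kept its sign in both genotypes. It was 0.9858 (WT) and 0.7187 (TG) with the filter at the 40th percentile of mean signal. Those means include the DSS mice, so members that rose could pass through their rise and these 2 values are no support. Members below that percentile had medians of 0.6359 (mitotic) and 0.4608 (S-phase) in WT mice. In TG mice these were 0.3417 and 0.3758. Members that rose could leave this dim set through their rise, so these medians cannot decide whether the mitotic lead held for dim members. With array weights 1 member was called higher for genotype without DSS, among 58 genes called in all. For genotype with DSS 1 was called lower, among 339 genes. For TG flora against controls 2 were called higher, against 15.9% of all genes. For TG against WT flora 17 were called lower, among 4886 of 19908 genes called. That last comparison gave 4 with all arrays in 1 model, among 1927 genes called. It gave 0 to 17 when a mouse was left out, with 0 to 4700 genes called. For WT flora against controls, 23 became 11 with quantile normalization, 0 with the within-array SD and 1 without the 7 arrays of lowest SD. All genes called higher were 15.3%, 0.00502% and 15.2% there, in that order, against 32.1% in the main fit. Without a mouse, 12 to 31 members were called, with 27.6% to 32.5% of all genes called higher. Signs turned, none of them called, for Cdt1 in WT mice after DSS with the smooth muscle covariate (-0.0419), Pcna in TG mice after DSS with quantile normalization (-0.0278) and with the within-array SD (-0.0218), and Rrm1 with WT flora with the within-array SD (-0.0478). Beyond the fewer genes or mice, the cause was not tested. No paired analysis was possible because the mouse numbers are not shared between groups. Signal over background limits dim members, and no detection call was among the values used here.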
